A study of Mus musculus with 30 samples.

Results

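Replication-dependent histone genes encode the linker histone H1 and the core histones H2A, H2B, H3 and H4 that package newly copied DNA. They were taken here as the protein-coding genes of the GRCm38 table whose symbols are H1f1 to H1f5 or begin with H2ac, H2bc, H3c or H4c followed by digits. These were 62 of the 21631 such genes that chromosomes 1 to 19 and X hold in the table, namely 5 H1, 17 H2A, 16 H2B, 12 H3 and 12 H4 genes. The group was chosen from results of these same libraries, namely its H3K4me3 covered length and the nearby HOXA9 sites, so every value below is a description and no test is given.

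The series followed mouse C57BL/6 cells grown in vitro in which the homeodomain protein HOXA9, a regulator of blood progenitors, is fused to the hormone-binding part of the estrogen receptor, so that its activity depends on estradiol (E2). H3K4me3, a histone mark of active promoters, was mapped by chromatin immunoprecipitation and sequencing (ChIP-seq) in 5 conditions of the line ER-Hoxa9-Lys-GFP. Cells were either kept in E2, or washed and kept without E2 for 120 h, or kept without E2 for 24, 40 or 72 h and then given E2 again for 96, 80 or 48 h. These are called the E2, 120 h, 24 h, 40 h and 72 h lists, and only the 120 h cells were without E2 when collected. The 24, 40 and 72 h lists are called the restored lists. In separate cells carrying a V5-tagged protein, sites were listed for V5-Hoxa9-AM (untreated) and for its estrogen receptor version V5-ER-Hoxa9-AM, in E2 and, for V5 only, after 72 h without E2 and 48 h with it. The sources used here do not say whether a line is 1 clone or which promoter drives its transgene. Each condition had 1 library, so no difference has a replicate check. The lists come from bulk cultures, in which more cells with the mark and more of the mark per cell cannot be told apart.

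In dividing cells these genes are transcribed mainly in S phase, when the coactivator NPAT gathers at their clusters in a nuclear structure called the histone locus body. Their messages are short, usually lack introns and end in a stem-loop bound by SLBP in place of a poly(A) tail. Many H2A and H2B genes are paired head to head and share the stretch of DNA between their starts, and H4 promoters carry an element bound by HINFP.

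The members lay in 4 runs on GRCm38, one on chromosome 3 (chr3:96219885-96270192, 10 genes) and the others on chromosome 13. The runs on chromosome 13 are called A (chr13:21715711-21833475, 17 genes), B (chr13:22035122-22043658, 5 genes) and C (chr13:23531044-23934913, 30 genes). The genes were short, with a median length of 491 bp, and 57 of 62 were no longer than 1 kb. RefSeq promoters of GRCm38.p6 were matched for 57 of the 62, and 56 of these had 1 listed start. The DNA just before 4 starts, 1 for each kind of promoter, is shown because the lists differed there. It held little or no H3K4me3 in E2 and in the restored lists and a part of it was covered at 120 h. Each line gives the forward strand, 5′ to 3′. Capitals mark CCAAT, the string of the box bound by NF-Y, on either strand. They also mark TATAAA, the string of the box bound by TBP. In the promoter of the H1 gene they mark AAACACA, called the H1 box. In that of the H4 gene they mark GGTCCG, the core of the element bound by HINFP. Strings were marked wherever they stood, and whether any is bound was not tested. In H4c17 TATAAA stands near the middle of the stretch shown and not close to the start. The H1 gene H1f2 is represented by chr13:23738557-23738806, the pair of H2bc13 and H2ac13 by all bases between their starts, chr13:21716184-21716411, H3c10 by chr13:21717378-21717627, and H4c17 by chr13:21811496-21811745.
H1f2: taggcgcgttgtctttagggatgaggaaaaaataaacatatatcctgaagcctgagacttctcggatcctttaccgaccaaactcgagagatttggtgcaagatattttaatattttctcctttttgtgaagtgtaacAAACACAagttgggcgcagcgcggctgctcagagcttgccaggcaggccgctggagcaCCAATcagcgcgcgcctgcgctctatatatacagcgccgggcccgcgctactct
H2bc13/H2ac13: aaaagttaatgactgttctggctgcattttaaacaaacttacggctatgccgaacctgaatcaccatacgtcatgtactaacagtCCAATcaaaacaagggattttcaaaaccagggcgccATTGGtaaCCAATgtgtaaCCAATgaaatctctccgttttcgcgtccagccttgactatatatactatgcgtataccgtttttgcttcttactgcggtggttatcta
H3c10: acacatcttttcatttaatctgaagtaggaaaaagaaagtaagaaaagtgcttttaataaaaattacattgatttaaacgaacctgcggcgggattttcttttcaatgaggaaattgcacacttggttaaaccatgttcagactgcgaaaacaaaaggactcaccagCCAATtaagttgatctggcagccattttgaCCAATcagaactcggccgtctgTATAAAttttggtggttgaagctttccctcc
H4c17: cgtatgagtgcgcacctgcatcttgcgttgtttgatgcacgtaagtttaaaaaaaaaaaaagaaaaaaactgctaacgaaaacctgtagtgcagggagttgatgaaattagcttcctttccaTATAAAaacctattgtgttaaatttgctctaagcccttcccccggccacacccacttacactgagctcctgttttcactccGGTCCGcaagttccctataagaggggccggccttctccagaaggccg

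At 120 h H3K4me3 peaks covered 14 of the 250 bp shown for H1f2, 123 of the 228 bp between H2bc13 and H2ac13, 60 of the 250 bp of H3c10 and 27 of the 250 bp of H4c17. In E2 the covered length was 0 bp at all 4. In the restored lists it was 0 bp at the first 3, and at H4c17 it was 0, 14 and 1 bp in the 24, 40 and 72 h lists. Each stretch thus had its highest covered length at 120 h.

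Among 57 matched members, 49 held CCAAT on either strand in the window from 250 bases before to 50 after the start (86.0%, against 37.4% of all 32851 promoters in the table). All matched H1 (5), H2A (17), H2B (14) and H3 (10) genes held it, and 3 of 11 H4 genes did. TATAAA was found at any position in this window in 34 members (59.6%, against 13.6% of all promoters). The octamer ATTTGCAT, a string bound by OCT1 (Pou2f1), was found in 13 members, 6 H2A and 7 H2B genes (22.8%, against 1.74%). AAACACA stood in 8 members, among them 4 of the 5 H1 genes (14.0%, against 7.18%). GGTCCG stood in 12, among them 10 of 11 H4 genes (21.1%, against 8.25%). Both strands were searched for each string and none of the strings contains another. The windows of head-to-head partners overlap, so 1 string can be counted for both genes. For the octamer both partners were positive in the pairs H2ac12 and H2bc12, H2ac8 and H2bc8, and H2bc1 and H2ac1. Over their full 300 bases, these strings included, the promoters were mostly unlike each other, with a median identity of 54% to the closest other member. The closest were H4c17 and H4c18 at 99%, H3c14 and H3c15 at 89.7% and H4c11 and H4c12 at 87%. The sources used here do not say how reads that map to such copies were treated, so the split of the mark within these pairs is uncertain, and the coding parts of a histone family can be alike as well.

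The 5 H3K4me3 lists held between 17497 peaks (E2) and 23835 peaks (120 h), covering 10.4 to 17.3 Mb. Read depth was not given, and a longer list covers more of any gene group. Counts of marked genes, of genes past 2-fold and of genes near a site are therefore set beside the same count over all genes where each comparison is first described. All 6 progenitor markers (Cd34, Kit, Flt3, Myb, Hoxa9 and Meis1) had a peak in every list. Their median of covered bp within the gene plus 1 kb was 3551 in E2 and 1939.5 at 120 h. From E2 to 120 h Cd34 went from 4628 to 1053 bp, and Kit, Flt3 and Myb were also lower. Hoxa9 (1180 and 1281 bp) and Meis1 (2923 and 3077 bp) were not. Of 6 maturing neutrophil markers (Cebpe, Ltf, Lcn2, S100a8, S100a9 and Itgam) 0 had one in E2, 1, 2 and 2 did in the 24, 40 and 72 h lists, and all 6 did at 120 h. Of 15 markers of erythroid cells, T cells, B cells and fibroblasts, 1 had a peak in E2 and 5 at 120 h.

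A gene was called marked if a peak lay in the gene or within 1 kb of it. In E2 51 of the 62 histone genes were marked, where 47.1% of all genes were. In the 24, 40, 72 and 120 h lists the counts were 58 (all genes 50.7%), 60 (50.5%), 60 (51.4%) and 62 (53.2%). The same 50 genes were marked in all 5 lists. The median covered length, in bp of peak within the gene plus 1 kb on either side, was 683.5 in E2 and 851.5, 996.5, 903 and 1320.5 in the 24, 40, 72 and 120 h lists. For 52 of the 62 genes the 120 h list gave the highest covered length of the 5. The same count was not made over all genes, and the 120 h list was also the longest, so whether this is particular to histone genes was not tested.

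**Figure D1:**
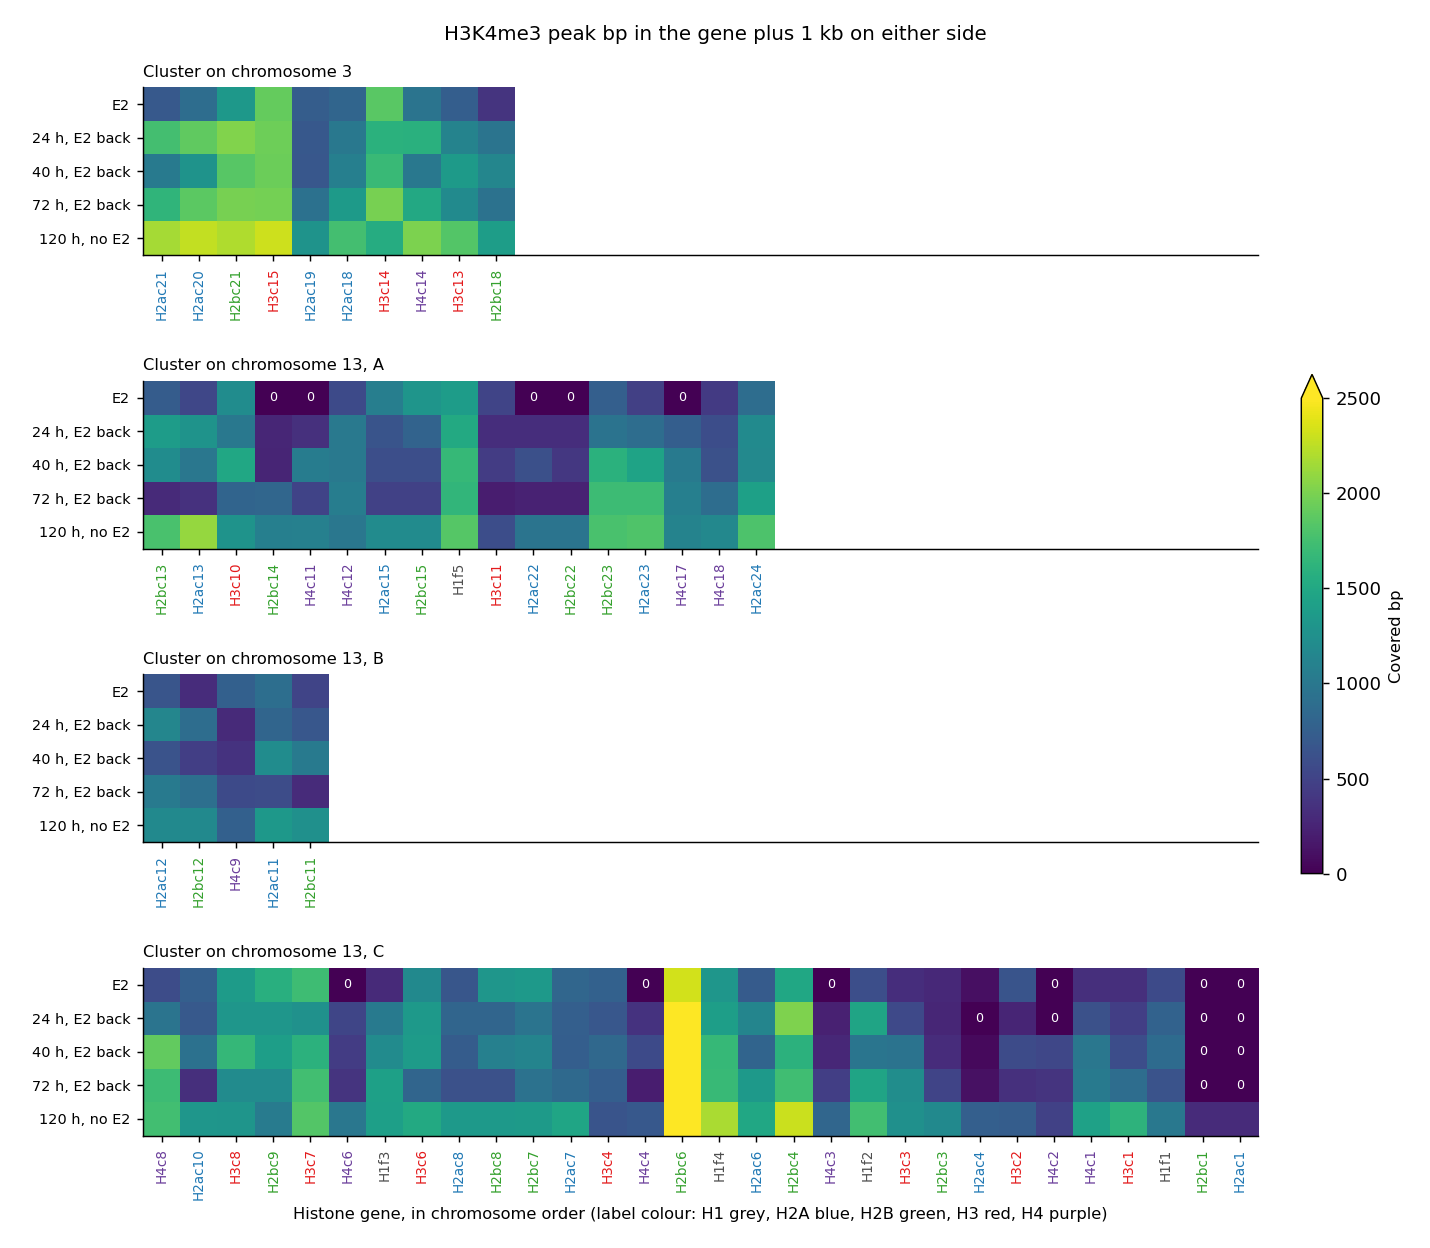
H3K4me3 covered length of each of the 62 histone genes (columns, in chromosome order) in the 5 lists (rows), with colour giving bp within the gene plus 1 kb and a printed 0 where no peak lay there. The zeros number 11 in E2 and 0 at 120 h, and neighbouring genes share colours because their windows overlap.

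The 11 genes with no peak in E2 were 6 H4 genes (H4c2, H4c3, H4c4, H4c6, H4c11 and H4c17), 3 H2B genes (H2bc1, H2bc14 and H2bc22) and 2 H2A genes (H2ac1 and H2ac22). Of these, 8 were marked in the 24 h list, 9 in the 40 h list, 9 in the 72 h list and 11 at 120 h. Among all 11443 genes unmarked in E2, 7.67%, 7.15%, 8.89% and 12.3% were marked in those lists. H4c17, one of the near-identical pair, had 0 bp in E2 and 746, 1016, 1077 and 1114 bp in the 24, 40, 72 and 120 h lists. H4c11 had 0, 349, 1053, 502 and 1093 bp in E2 and in the 24, 40, 72 and 120 h lists. H2bc14, an H2B gene of run A, had 0, 269, 255, 827 and 1079 bp in the same order. These 3 had the largest log2 ratios of 120 h over E2 among the members, and all 3 were already marked in the cells returned to E2 after 24 h.

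The other genes unmarked in E2 had less of the mark than these 3 at 120 h, though not in every restored list. H4c6 had 0, 525, 443, 374 and 990 bp in E2 and in the 24, 40, 72 and 120 h lists. H4c4 had 0, 370, 564, 199 and 692 bp and H4c3 had 0, 226, 282, 464 and 825 bp. In each of them the 120 h value was the highest of the 5. The paired genes H2ac22 and H2bc22 share their peaks for the most part, with 0, 326, 614, 241 and 963 bp at H2ac22 and 0, 326, 410, 241 and 963 bp at H2bc22. H4c2 was unmarked in both E2 and the 24 h list and had 530, 379 and 480 bp in the 40, 72 and 120 h lists.

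H2ac1 and H2bc1, the pair at the end of run C that encodes the testis types of H2A and H2B, stood apart from the rest. Both were at 0 bp in E2 and in the 24, 40 and 72 h lists, and a single peak of 307 bp at 120 h gave both their value. That peak covered 292 bp of H2bc1 and no base of H2ac1. Without the pair 60 of 60 members were marked at 40, 72 and 120 h. H2ac4 was the only member marked in E2 and unmarked later, with 105, 0, 59, 115 and 753 bp in E2 and at 24, 40, 72 and 120 h. Its E2 and restored values were thus at most 115 bp.

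Ratios of covered length were taken as log2 with 50 bp added to each value, over genes marked in at least 1 of the 2 lists, and 2-fold was the limit for a call. The 4 comparisons with E2 share the E2 library. At 120 h 32 of 62 histone genes were at least 2-fold higher than in E2, where 32.6% of all 11594 genes tested were, and 0 of 62 were 2-fold lower (all genes 1.35%). Of the 32, 11 had no peak in E2 and 21 had one. The median log2 ratio was 1.04, against 0.59 over all genes tested. Any higher value was found for 57 of the 62, a count that was not made over all genes. Other genes no longer than 1 kb, which have windows like those of the histone genes, had a median of 0.73, with 16 of 45 past 2-fold (35.6%). The genes nearest to the limit were H4c14 just above it (from 966 to 2009 bp) and H2ac6 just below it (from 721 to 1487 bp).

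In the cells given E2 again the median ratios of the histone genes lay closer to those of all genes, while the shares past 2-fold still differed. In the 24 h list 15 of 59 were 2-fold higher than in E2 (all genes 17.2%) and 3 were 2-fold lower (1.08%), with a median of 0.42 against 0.35 over all genes. In the 40 h list 16 of 60 were higher (17.9%) and 1 was lower (0.9%), with medians of 0.43 and 0.40. In the 72 h list 21 of 60 were higher (24.8%) and 6 were lower (1.09%), with medians of 0.60 and 0.54. The 6 lower genes were H2bc13, H2ac15, H2bc15, H3c11, H2ac10 and H2bc8, and this count depended on the settings, from 1 with 200 bp added to 16 with only the wider peaks of each list kept. The cells without E2 could also be set against the 72 h cells. There 19 of 62 histone genes were 2-fold higher at 120 h (all genes 9.08%) and 0 were 2-fold lower (2.56%), with a median of 0.43 against 0.01 over all genes.

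**Figure D2:**
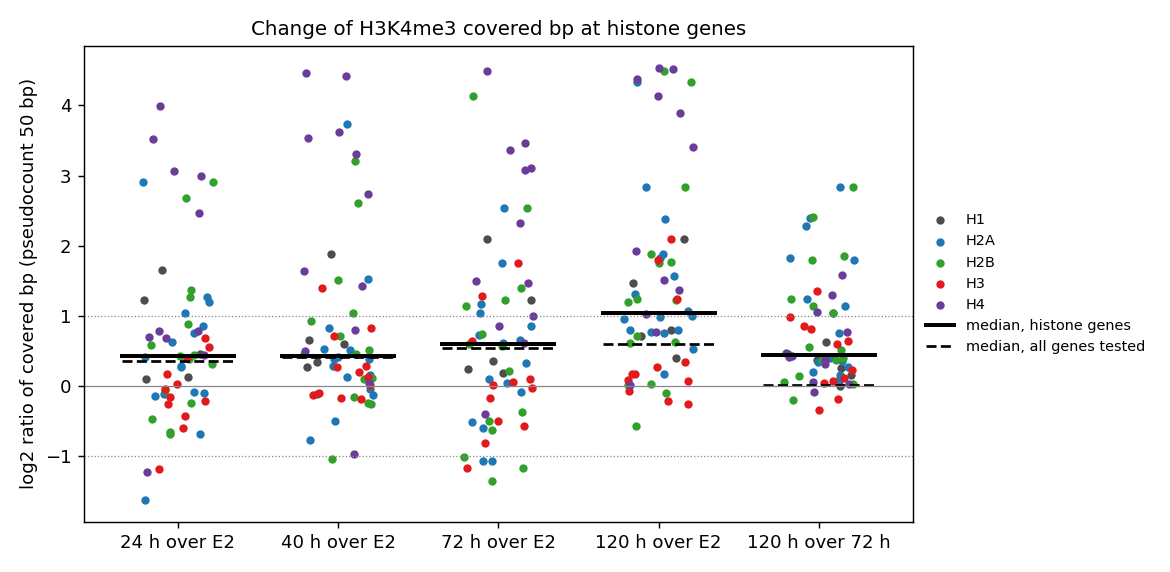
log2 ratio of covered length (50 bp added) for each histone gene in 5 comparisons, coloured by family, with solid bars for the histone median, dashed bars for the median of all genes tested and dotted lines at 2-fold. The medians lie side by side for the 3 restored lists (0.42 and 0.35, 0.43 and 0.40, 0.60 and 0.54) and apart for 120 h over E2 (1.04 and 0.59) and 120 h over 72 h (0.43 and 0.01).

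The genes with the lowest ratios at 120 h belonged to H2B and H3. H2bc9 had 1575, 1316, 1405, 1207 and 1036 bp in the E2, 24, 40, 72 and 120 h lists, a log2 ratio of -0.58 for 120 h over E2. H3c14 had 1862, 1598, 1693, 1986 and 1545 bp in the same order (log2 -0.26), and H3c4 had 772, 682, 847, 751 and 653 bp (log2 -0.23). H2bc9 and H3c4 had their lowest value of the 5 at 120 h, as did H3c14, but none of the 3 passed 2-fold. Within the genes themselves, without the flanks, the log2 ratio of 120 h over E2 was above 0 for H2bc9 (0.29), H3c14 (1.16) and H3c4 (0.90).

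The lowest ratios at 72 h were those of H2bc15, H3c11 and H2bc13. H2bc15 had 1305 bp in E2 and 794, 604, 480 and 1205 bp in the 24, 40, 72 and 120 h lists (log2 -1.35 for 72 h over E2). H3c11 had 517, 324, 447, 200 and 587 bp (log2 -1.18). H2bc13 had 726, 1380, 1213, 294 and 1783 bp (log2 -1.17). All 3 lie in run A, and in each the 72 h list gave the lowest value and the 120 h list was 2-fold or more above it. None of the 3 was 2-fold lower within the gene alone. There the covered length of H2bc15 went from 250 bp to 428 bp (log2 0.67), that of H3c11 from 271 to 200 bp (log2 -0.36), and H2bc13 was at 0 bp in both lists, so these ratios rest on the flanks.

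The families differed in how much of the mark they held in E2. The 12 H3 genes, which encode the histone that carries this mark, were marked in every list, with medians of 978.5, 1063, 1367.5, 1046 and 1410 bp in E2 and at 24, 40, 72 and 120 h. In E2 their values ran from 329 bp (H3c3) to 1913 bp (H3c15). At 120 h 3 of 12 were 2-fold higher than in E2, namely H3c3, H3c13 and H3c1, and the median log2 ratio was 0.17 (all genes 32.6% and 0.59). These values depend on the flanks. Within the gene alone 5 of 12 were 2-fold higher, namely H3c15, H3c14, H3c13, H3c10 and H3c3, with a median of 0.87, where 31.03% of all genes were and their median was 0.51. H3c3 had 329, 556, 949, 1228 and 1259 bp, and H3c1 had 340, 465, 590, 897 and 1613 bp. Both had more covered bp in each later list, whereas H3c15 had 1913 to 1979 bp in E2 and the restored lists and 2313 bp at 120 h.

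The 12 H4 genes had the lowest median of the 5 families in every list but that of 40 h, where the H2A median was 1 bp lower. Their medians were 170, 557.5, 806, 729 and 1042.5 bp, and 6, 11, 12, 12 and 12 of them were marked in E2 and at 24, 40, 72 and 120 h. Among those marked in E2 the lowest was H4c1 with 340 bp and the highest H4c14 with 966 bp. At 120 h 10 of 12 were 2-fold higher than in E2, with a median log2 ratio of 2.66 that is set by the 6 genes at 0 bp in E2 and by the 50 bp added. The other 2, H4c12 and H4c9, had 564 and 762 bp in E2 and 992 and 771 bp at 120 h. Within the gene alone all 12 were 2-fold higher. With the H4 genes left aside, 22 of 50 members were 2-fold higher at 120 h, with a median of 0.88.

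The 5 H1 genes, whose products bind the linker DNA between nucleosomes, had medians of 598, 1402, 1208, 1458 and 1739 bp, and all 5 were marked in every list. H1f3 was lowest in E2, with 293 bp and then 1025, 1208, 1418 and 1411 bp at 24, 40, 72 and 120 h. H1f5 was highest in E2, with 1386, 1522, 1677, 1642 and 1839 bp. H1f2 had 598, 1463, 973, 1458 and 1739 bp, and only H1f3 and H1f2 passed 2-fold at 120 h over E2. Within the gene alone only H1f3 did. H1f4 (from 1309 in E2 to 2180 bp) and H1f1 (557 and 1005 bp) also had their highest value at 120 h.

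H2A and H2B, which join as dimers in the nucleosome, had like medians. For the 17 H2A genes these were 721, 813, 805, 855 and 1338 bp and for the 16 H2B genes 739, 919, 1107.5, 868 and 1297.5 bp. At 120 h 8 of 17 H2A and 9 of 16 H2B genes were 2-fold higher than in E2, with median log2 ratios of 1.00 and 1.21. Within the gene alone 10 of 16 H2A genes with a peak there and 7 of 16 H2B genes were, with medians of 1.15 and 0.81. Among marked H2A genes E2 values ran from 105 bp (H2ac4) to 1070 bp (H2ac15). Among marked H2B genes they ran from 287 bp (H2bc3) to 2333 bp (H2bc6, whose annotated gene of 37455 bp is the longest of the members and takes in the windows of others).

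**Figure D3:**
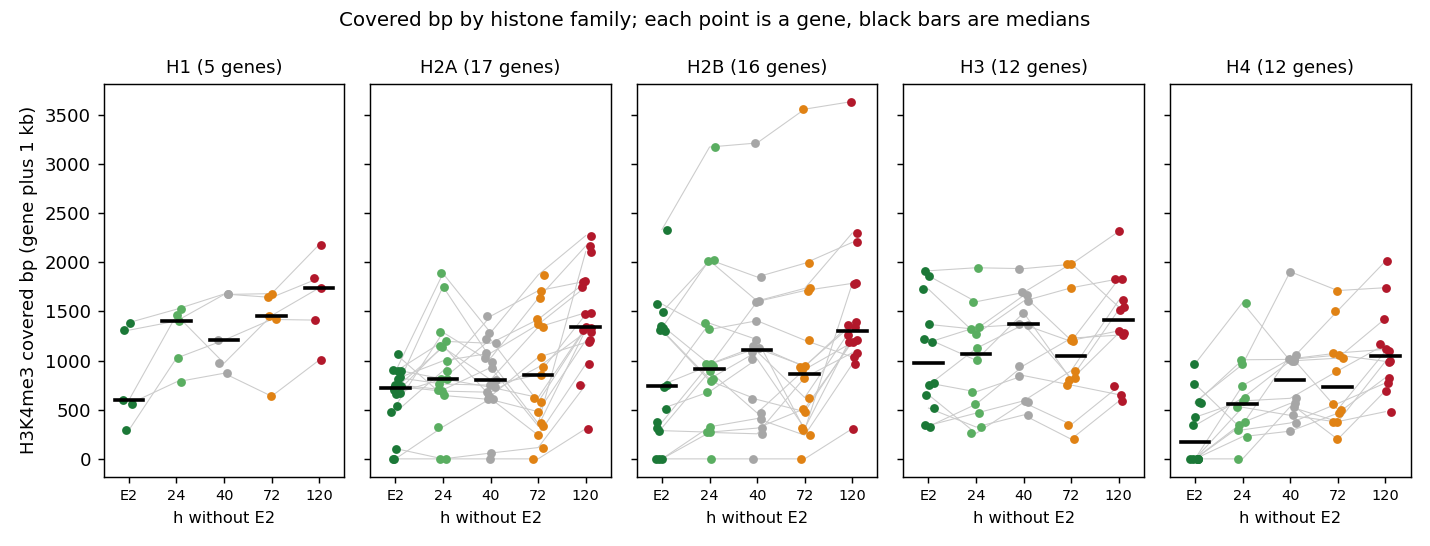
Covered bp (gene plus 1 kb) by histone family and list, with each point a gene, grey lines joining the same gene across lists and black bars the medians. H4 starts lowest (median 170 bp in E2) and is at 1042.5 bp at 120 h, while H3 starts highest (978.5 bp) and is at 1410 bp.

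The lists also differed in where the peaks lay relative to the start. For the 56 members with 1 listed start, a peak covered the start base itself in 0 genes in E2, in 1, 0 and 3 genes of the 24, 40 and 72 h lists, and in 39 genes of the 120 h list (69.6%). The 1 gene at 24 h was H2ac21, and the 3 at 72 h were H2ac21, H1f5 and H4c6. Among 7504 other genes with 1 start and a peak in E2 or at 120 h, the shares were 12.7%, 21.9%, 20.6%, 36.1% and 59.1% in the same order. For the 207 of these that were no longer than 2 kb they were 15.5%, 31.9%, 30.9%, 44.0% and 61.4%. At the start base the histone shares thus lay below those of the other genes in E2 and the restored lists and above them at 120 h. Upstream the order at 120 h varied with distance. At 200 bp before the start 42.9% of the histone genes were covered, against 53.9% of the 7504 others. At 500 bp before it the shares were 67.9% and 42.3%. In the 9 head-to-head pairs of H2A and H2B genes that point lies within the partner gene. The histone genes covered there were 14 of 17 H2A, 12 of 13 H2B, 1 of 5 H1, 7 of 10 H3 and 4 of 11 H4 genes. The lowest shares within 300 bp upstream were 8.93% of the histone genes and 39.0% of the others. These counts follow the edges of the listed peaks. When peaks within 1 kb of each other were joined, 14, 24, 25, 28 and 50 of the 56 histone starts were covered, against 42.6%, 58.2%, 57.7%, 68.8% and 78.3% of those of the 7504 other genes.

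The order seen at the start base also held a short way into the genes. At 100 bp after the start 0, 5, 4, 19 and 54 of 56 histone genes were covered in E2 and at 24, 40, 72 and 120 h, where 39.2%, 44.9%, 44.2%, 63.8% and 83.7% of the other genes were. At 500 bp after the start, which is close to the end of most of these genes, the counts were 31, 39, 40, 30 and 43. These were 55.4%, 69.6%, 71.4%, 53.6% and 76.8%, against 60.6%, 67.5%, 68.5%, 74.9% and 77.6% of the other genes. The histone share there was thus near that of the other genes except at 72 h, where it was lower. The distance at which the most histone genes were covered was 433 bp in E2 (57.1% of genes). In the 24, 40 and 72 h lists it was 435 bp (76.8%), 414 bp (75.0%) and 317 bp (76.8%), and in the 120 h list 140 bp (98.2%). Over other genes it was 470, 550, 572, 412 and 197 bp.

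**Figure D4:**
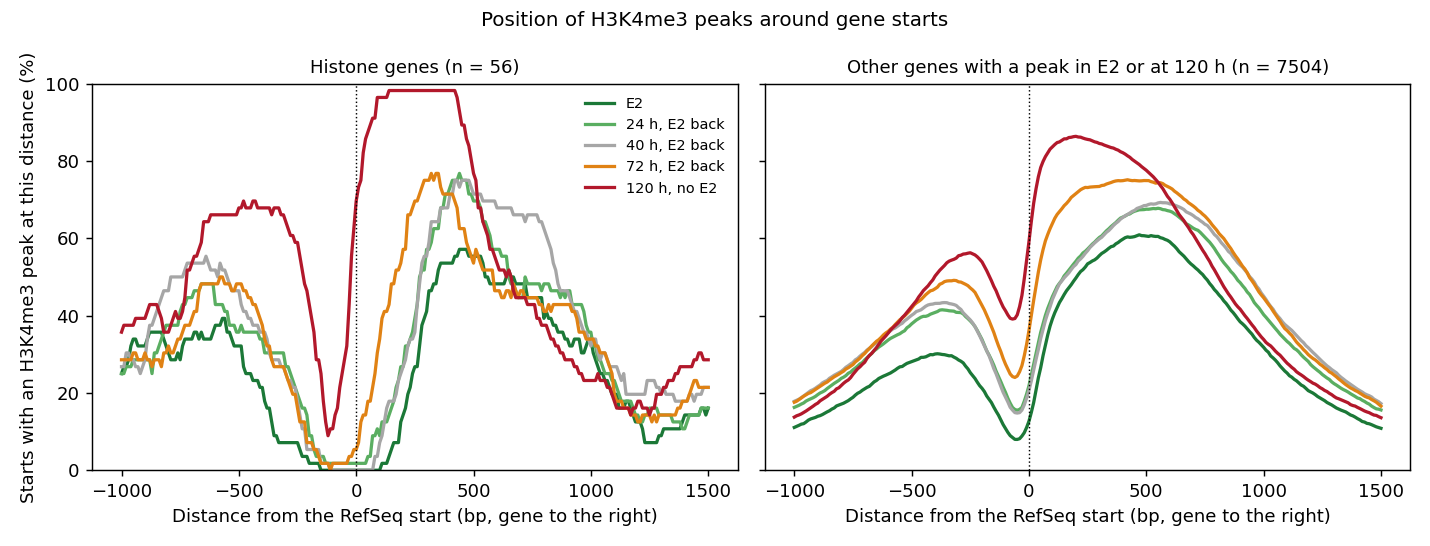
Share of starts with an H3K4me3 peak at each distance from the RefSeq start, for 56 histone genes (left) and 7504 other genes with a peak in E2 or at 120 h (right), with the gene to the right of 0. At 0 bp the histone curves are at 0 to 5.36% in E2 and the restored lists and at 69.6% at 120 h.

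Summed over the 56 genes, peaks covered 21.1% of the gene bodies in E2 and 29.2%, 28.5%, 38.1% and 61.2% in the 24, 40, 72 and 120 h lists. No gene was covered from end to end in E2 or in the 24 and 40 h lists, 2 were at 72 h and 30 were at 120 h. Of the 1 kb upstream 21.0%, 27.8%, 31.1%, 28.3% and 49.6% was covered, and of the 1 kb downstream 27.2%, 31.7%, 38.8%, 28.9% and 30.6%. In head-to-head pairs the 1 kb upstream takes in part or all of the partner gene. The 120 h share was the highest of the 5 in the genes and upstream of them, but not downstream. These shares and the counts of fully covered genes are not given for other genes. The whole 120 h list was 1.67 times as long as that of E2, so how far they are particular to histone genes was not tested. All 5 H1, 10 of 17 H2A, 10 of 13 H2B, 8 of 10 H3 and 6 of 11 H4 starts were covered at 120 h.

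The head-to-head pairs gave the same picture between their starts. Among the 56 genes with 1 listed start there were 9 pairs of 1 H2A and 1 H2B gene, with 163 bp (H2ac15 and H2bc15) to 280 bp (H2bc1 and H2ac1) between the starts. In E2 and the 24, 40 and 72 h lists the covered length between the starts was 0 bp in all 9. At 120 h it was above 0 bp in 8 of the 9, with 123 bp at H2bc13 and H2ac13 (the sequence shown above), 43 bp at H2bc7 and H2ac7, 42 bp at H2ac22 and H2bc22, 39 bp at H2ac15 and H2bc15, 30 bp at H2bc23 and H2ac23, 22 bp at H2ac8 and H2bc8, 14 bp at H2ac11 and H2bc11 and 1 bp at H2ac12 and H2bc12. The testis pair H2bc1 and H2ac1 stayed at 0 bp. No such count was made for head-to-head pairs of other genes. Their start bases were also covered more often at 120 h (59.1% of the 7504 other genes) than in E2 (12.7%). Whether the values between the starts are particular to histone pairs was therefore not tested, and the smallest turn on where a peak edge was placed. Most of each stretch was free of peaks in every list, apart from that of H2bc13 and H2ac13.

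Because neighbouring windows overlap, the 62 windows were also joined into 33 regions of 180275 bp in all. Peaks covered 32055 bp of them in E2 and 41309, 45206, 43454 and 59178 bp in the 24, 40, 72 and 120 h lists, or 17.8%, 22.9%, 25.1%, 24.1% and 32.8%. Relative to E2 the covered length was 1.29, 1.41, 1.36 and 1.85 times as large in the 24, 40, 72 and 120 h lists, where the whole lists were 1.37, 1.44, 1.55 and 1.67 times as long. Histone regions thus lay below the whole list in the 3 restored lists and above it at 120 h. The later lists kept 78.8%, 84.7%, 77.0% and 74.1% of the bp covered in E2, against 90.5%, 93.2%, 93.2% and 83.2% over the whole lists, so a smaller share of the E2 coverage was kept in these regions than over the lists.

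The runs differed in level. On chromosome 3 peaks covered 35.0%, 49.9%, 44.7%, 50.5% and 60.7% of the windows in E2 and at 24, 40, 72 and 120 h. In run A the shares were 14.1%, 19.3%, 23.3%, 20.2% and 31.6%, in run B 22.4%, 24.9%, 23.5%, 23.1% and 38.6%, and in run C 15.9%, 19.4%, 22.4%, 21.0% and 27.8%. The run on chromosome 3 was the highest and the 120 h share the highest of each run. In run C, which holds genes of other kinds between the histone genes, the windows took 104467 of 403870 bp and held 94.6% to 96.5% of the covered bp. Of the 7 other protein-coding genes there, Hfe, a regulator of iron uptake, had 536, 849, 710, 766 and 868 bp, and Trim38, Slc17a1, Slc17a2, Slc17a3 and Slc17a4 were at 0 bp in all 5 lists. H1f6, the testis H1 gene, had 3 bp at 40 h and 0 bp in the others.

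Genes that make or regulate histone messages had more covered bp in E2 than the members did. They are mostly longer genes with wider windows, so these levels are not directly comparable. All 33 genes of a list that holds Npat, Slbp, the U7 and cleavage factors, histone chaperones, promoter factors and cyclin E with its kinase were marked in every list. Their median was 1147 bp in the E2 list and 1672 bp in the 120 h list. At 120 h 5 of 33 were 2-fold higher than in E2 (all genes 32.6%) and 1 was lower (1.35%), with a median log2 ratio of 0.36 against 0.59 over all genes. Npat had 1785, 2008, 1738, 1872 and 1818 bp in E2 and at 24, 40, 72 and 120 h, and Slbp had 1312, 1719, 1490, 1664 and 1875 bp. The 5 higher genes were Ccne1 and Ccne2 (cyclin E, which acts on NPAT at the start of S phase), Eri1 (an exonuclease of the histone stem-loop), Yy1 (a transcription factor) and Cstf2 (a cleavage factor). From E2 to 120 h the covered bp went from 467 to 1447 for Ccne1, from 803 to 2215 for Ccne2, from 720 to 2014 for Eri1, from 1147 to 2853 for Yy1 and from 259 to 657 for Cstf2. The 1 lower gene was Hinfp, which binds H4 promoters, with 2383, 3115, 3099, 2983 and 875 bp. In the restored lists 2 (Cstf2 and Eri1), 1 (Cstf2) and 5 (Cstf2, Yy1, Ccne1, Ccne2 and Casp8ap2, a histone locus body protein) were 2-fold higher than in E2 and 0 were 2-fold lower.

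A list of other histone genes, drawn up for the replication-independent kind that is expressed outside S phase as well, was in part unmarked. It also holds H2aw and H1f6, which have older Hist names, so the kind does not apply to every gene in it. Of 17 genes matched, 10, 10, 11, 10 and 11 were marked in the 5 lists (all genes 47.1%, 50.7%, 50.5%, 51.4% and 53.2%). The 40 h count includes H1f6 with 3 bp. H3f3c, H1f0, H1f7, H1f8 and H3f4 were at 0 bp in all of them. At 120 h 2 were 2-fold higher than in E2 (all genes 32.6%), H1f10 (from 232 to 1163 bp) and Macroh2a2 (from 0 to 571 bp). The others that were marked lay nearer to their E2 values, as with H3f3b at 1656 and 1448 bp, H2az1 at 1299 and 2326 bp and H2ax at 1543 and 1780 bp. Of the 5 genes that match the histone clusters only by an older Hist name, H4f16 went from 971 bp in E2 to 1697 at 120 h, H4bc24 1395 and 1936, H2aw 2162 and 2366, H2bu2 0 and 193, and H1f6 0 in both.

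Sites of the tagged HOXA9 proteins were counted within 10 kb of a histone gene. In V5-Hoxa9-AM cells the V5 list of 17006 sites put a site near 37 of 62 members (59.7%, all genes 33.4%). These were only 16 sites, each counted for up to 7 neighbouring genes. Within 1 kb the order was the other way round, with 10 of 62 members (16.1%) against 24.0% of all genes. Each window takes in the gene itself, and most members are short. For none of the site lists was the share counted over genes of like length, so the shares of members and of all genes are not directly comparable. In V5-ER-Hoxa9-AM cells with E2, 1 of 1417 V5 sites lay within 10 kb, near H3c14 and H4c14 (2 of 62 members, 3.23%, all genes 3.9%), and after 72 h without E2 and 48 h with it 0 of 387 did (all genes 1.19%). In the lists titled AM, 2 of 6773 sites of V5-Hoxa9-AM cells lay near 8 members (12.9%, all genes 19%) and 0 of 258 sites of V5-ER-Hoxa9-AM cells in E2 did (all genes 0.73%). Those 2 sites have the coordinates of V5 sites, and both AM samples carry V5 as their antibody label.

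Several of the 16 V5 sites lay in or beside a histone gene. H1f5 held 2 of them, chr13:21779442-21779866 at its end and chr13:21780208-21780549 over its body near the start, and another lay 287 bp from H3c11 (chr13:21783684-21783944). H4c9 was overlapped by chr13:22040899-22041376, H4c6 by chr13:23551485-23551761, H2bc8 by chr13:23571827-23572044 and H4c4 by chr13:23581448-23581701. The long gene H2bc6 held 2 and another lay 42 bp from it. The sites at H1f5 were covered by H3K4me3 in every list, with 352, 379, 425, 340 and 407 bp of the first and 187, 235, 301, 342 and 342 bp of the second. The site at H2bc8 was covered over all its 218 bp in every list, and the one at H4c6 over 0, 51, 0, 202 and 277 bp.

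Both sites shared with the AM list had little of the mark. The site chr13:23760181-23760592 lies 203 bp from H4c1, within 10 kb of H4c1, H4c2, H1f1, H3c1, H3c2 and H2ac4, and was covered over 0, 29, 114, 0 and 0 bp. The site chr3:96250919-96252084, the widest of the 16 at 1166 bp, lies 3571 bp from H3c14 and also near H2ac18, and was at 0 bp in all 5 lists, as was the V5-ER-Hoxa9-AM site chr3:96256320-96256511. The other members within 10 kb of a V5 site were H3c13 and H2bc18 on chromosome 3, H4c11, H4c12, H2ac15, H2bc15, H2ac22 and H2bc22 in run A, the remaining 4 genes of run B, and H4c8, H2bc9, H3c7, H1f3, H3c6, H2ac8, H2bc7, H2ac7, H3c4 and H1f4 in run C. Members with and without a V5 site within 10 kb had like covered lengths in E2, with medians of 662 bp (37 genes) and 721 bp (25 genes). At 120 h the medians were 1257 and 1487 bp, and 16 of the 37 genes with a site and 16 of the 25 without one were 2-fold higher than in E2 (all genes 32.6%), with median log2 ratios of 0.79 and 1.31.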

How the data were processed

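Samples were grouped by their titles. The files deposited by the authors are peak lists with chromosome, start and end and no other value (unit other: coordinates), so no height, depth or threshold is known. The submitters' processing notes name Bowtie2 2.0, BWA, MACS2 2.0 and the builds mm9 and mm10, and the sources used here do not say which belongs to which list. The H3K4me3 lists were treated as mm10, since 69.2% of E2 peaks lay within 1 kb of a GRCm38 gene end, against 9.33% after a shift of 100 kb. The V5 list of V5-Hoxa9-AM gave 11.7% and 5.66%. The V5-ER-Hoxa9-AM lists gave no such contrast and were taken as mm10 because 76.1% to 97.2% of their sites have coordinates of that list. H3K27ac and H3K27me3 lists, inputs and 96 h samples were not used here.

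Peak bp were merged and summed over each gene plus 1 kb. A log2 ratio used 50 bp added, 2-fold was the call, genes up to 200 kb apart formed a run, and sites were counted within 10 kb. Starts, strands and promoters came from RefSeq (GRCm38.p6). Python 3.11.15, numpy 2.4.6, edlib 1.3.9.post1 and matplotlib 3.10.9 were used, and the script for ratios was tested on simulated data. Genes and lists were chosen with earlier results of these data known. Named genes were those marked in some lists only, the extremes of each family in E2, the 3 largest rises and falls at 120 h and 72 h, those near a site, and list genes past 2-fold or unmarked. H2ac21, H1f5, H4c6, H3c13, H3c1, H3c10, H4c12, the remaining H1 genes, Npat, Slbp, H3f3b, H2az1 and H2ax were also named after their values were seen. Alternatives were other windows, added bp, folds, distances, only the wider peaks, equal list lengths and joined windows. Leaving out H2ac1 and H2bc1 and the alternatives for starts were chosen after seeing the data.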

Additional observations from a re-analysis of the deposited data

How the results depend on the processing

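No paired analysis was possible because each condition had 1 library and no test was made. The limits are those of peak lists without scores: a call turns on where an edge was placed, lists of different length cover different amounts, and read depth is unknown. The median ratios over the histone genes kept their sign under every alternative run. That of all genes for 120 h over 72 h (0.0082) was near 0 and turned negative with genes up to the longest histone gene (-0.021), lists of equal length (-0.013) and the gene alone (-0.014). For the histone genes 2-fold higher counts at 120 h over E2 ran from 27 (gene plus 2.5 kb) to 35 (gene alone) at this fold. With each list reduced to its 17497 widest peaks 29 members were 2-fold higher (all genes 27.1%), all of them among the 32, and with only peaks above each list's median width 28 were (all genes 38.6%), 23 of them among the 32.

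With the window from 250 bp before to 50 bp after the start, 4, 12, 10 and 17 of 56 genes were marked in the E2, 24, 40 and 72 h lists. With at least 50% of the window covered, 8, 12, 12, 15 and 32 were marked in E2 and at 24, 40, 72 and 120 h. With peaks above the median width 31 were marked at 72 h. At a fold of 1.5, 25 genes were higher and 7 lower at 24 h, and 3 lower at 40 h. At 24 h the counts of 2-fold lower genes, which are small, were 0 with 200 bp added and 6 with peaks above the median width or lists of equal length. At 40 h they were 2 with 10 bp added, 0 with 200 bp added, 5 for the gene alone, 2 with 2.5 kb and 5 when only wider peaks counted. At 72 h they were 1 with 200 bp added, 3 with 2.5 kb, 16 when only wider peaks counted and 12 with lists of equal length. At 120 h they were 4 with peaks above the median width. The cause was not tested.

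With peaks within 1 kb joined, starts covered numbered 14, 24, 25 and 28 in E2 and at 24, 40 and 72 h, peaks in the 4 runs numbered 34, 42, 39, 40 and 38, and run B was covered over 2853, 3499 and 3118 bp in E2 and at 24 and 72 h, since joining fills the gaps. Members near a site were 10 (1 kb) and 60 (50 kb) for V5 in V5-Hoxa9-AM, 0 and 33 for V5 in V5-ER-Hoxa9-AM with E2, and 1 and 28 for AM in V5-Hoxa9-AM. Single genes whose called ratio changed sign were H2bc15 (0.67) and H2bc8 (0.32) for the gene alone and H2ac10 (0.051) with 2.5 kb, all at 72 h over E2, and H2ac4 at 120 h over E2 with peaks above the median width (-1.63).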
